A study of Mus musculus with 18 samples.

Results

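The data described here are the MYC peaks at 10 circadian clock genes whose promoters or introns are known for E-boxes, namely Nr1d1, Nr1d2, Ciart, Per1, Per2, Per3, Cry1, Cry2, Dbp and Tef, out of 21887 protein-coding genes on the chromosomes used. A gene was counted as carrying a peak in a library when the summit of a listed peak lay inside its RefSeq span on mm10 or within 1 kb of either end. By that rule 9 of the 10 genes had a peak in at least 1 library, against 19.1% of all protein-coding genes, and 8 had one in at least 2 libraries, against 10.5%, with 54 summits in all. MYC was precipitated from frozen liver tumours of FVB mice and sequenced beside an input library. All mice carried LAP-tta and TRE-MYC, so that MYC was driven in the liver once doxycycline was withdrawn, and tumours were taken at death. Homo mice were about 100 days old and were Arid1a fl/fl with Alb-cre, Het mice were about 70 days old and were Arid1a fl/+ with Alb-cre, and WT mice were about 55 days old and were Arid1a fl/fl without Cre. Alb-cre, driven by the albumin promoter, acts mainly in hepatocytes, so other cells of a tumour can keep Arid1a. Each genotype had 3 MYC libraries. Genotype and age differ together, so they cannot be told apart in any comparison. Against WT, the presence of Cre cannot be told apart from them either. Whether libraries of a genotype came from separate animals is not given in the labels, so the spread between them may be technical. The antibody was sc-764x from Santa Cruz. MYC peaks hold no RNA, so neither the loss of Arid1a nor the make-up of the tissue can be read from them, and the phase of the day at which tumours were taken is not given in the labels.

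The clock of mammalian cells is a feedback loop. CLOCK and BMAL1 (encoded by Arntl) bind E-boxes, whose canonical form is CACGTG, and activate the Per, Cry, Nr1d and Ciart genes. PER and CRY proteins and CIART repress CLOCK and BMAL1, and NR1D1 and NR1D2 (REV-ERBs) repress Arntl through ROR elements. Dbp and Tef are outputs of the same E-boxes. Their proteins are PAR bZIP factors that bind D-boxes and drive rhythmic liver genes. MYC with its partner MAX binds the same core E-box, and the question addressed is at which of these genes MYC was found in the tumours and in which Arid1a genotype.

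The promoter sequences are shown first, because they hold the E-boxes beside which several of the summits lay. For 9 of the 10 genes, all except Per2, RefSeq (GRCm38.p6, the assembly behind mm10) gave windows from 250 bases before to 50 bases after a start, 11 in all because Per1 and Tef have 2 listed starts each. The 250 bases upstream are printed 5′ to 3′ on the strand of the gene, with each CACGTG in capitals.
Per1, first listed start (chr11:69098699-69098948, plus strand): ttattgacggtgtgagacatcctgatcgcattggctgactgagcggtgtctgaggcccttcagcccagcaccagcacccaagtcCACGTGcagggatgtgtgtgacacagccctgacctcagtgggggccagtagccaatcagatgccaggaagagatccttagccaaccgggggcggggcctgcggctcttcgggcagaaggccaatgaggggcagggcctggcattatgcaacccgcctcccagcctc
Tef, first listed start (chr15:81802423-81802672, plus strand): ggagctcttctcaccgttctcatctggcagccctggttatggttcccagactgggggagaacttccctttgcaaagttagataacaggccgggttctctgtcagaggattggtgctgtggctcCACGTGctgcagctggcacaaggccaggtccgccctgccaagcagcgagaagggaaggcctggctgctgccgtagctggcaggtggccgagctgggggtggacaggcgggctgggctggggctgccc
Tef, second listed start (chr15:81811164-81811413, plus strand): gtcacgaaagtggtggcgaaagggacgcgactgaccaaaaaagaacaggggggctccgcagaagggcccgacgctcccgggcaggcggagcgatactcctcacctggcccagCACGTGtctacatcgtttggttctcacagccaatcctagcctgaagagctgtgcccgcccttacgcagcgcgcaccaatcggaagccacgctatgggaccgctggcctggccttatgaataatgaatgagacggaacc
Cry1 (chr10:85185055-85185304, minus strand): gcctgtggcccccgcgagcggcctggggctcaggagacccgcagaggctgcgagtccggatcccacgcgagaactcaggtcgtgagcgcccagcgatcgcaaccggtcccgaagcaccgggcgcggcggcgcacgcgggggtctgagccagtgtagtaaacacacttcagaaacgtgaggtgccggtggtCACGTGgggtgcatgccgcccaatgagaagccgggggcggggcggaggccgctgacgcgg
Ciart (chr3:95882229-95882478, minus strand): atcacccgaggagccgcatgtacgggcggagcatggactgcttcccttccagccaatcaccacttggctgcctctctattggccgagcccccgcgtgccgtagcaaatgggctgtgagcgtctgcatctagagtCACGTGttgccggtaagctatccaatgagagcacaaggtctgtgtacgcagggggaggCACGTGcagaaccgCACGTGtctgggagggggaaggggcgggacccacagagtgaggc
These are the 5 windows of these genes that contain CACGTG. The Nr1d1 window is shown for contrast, because Nr1d1 had the best median rank of these genes and its window contains no CACGTG. Only these windows were searched. Summits outside them, among them the 2 inner Nr1d1 sites, the main Dbp site and the Per2 sites, lie in sequence that was not searched. An E-box at those summits can therefore be neither shown nor denied.
Nr1d1 (chr11:98775378-98775627, minus strand): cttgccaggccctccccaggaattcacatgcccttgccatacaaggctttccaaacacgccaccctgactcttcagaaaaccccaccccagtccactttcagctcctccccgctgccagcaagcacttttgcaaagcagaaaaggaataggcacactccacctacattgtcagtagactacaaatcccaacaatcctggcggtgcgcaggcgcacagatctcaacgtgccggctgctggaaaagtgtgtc
In the Per3 window the capitals mark TTATGTAA, the D-box to which DBP and TEF bind.
Per3 (chr4:151044666-151044915, minus strand): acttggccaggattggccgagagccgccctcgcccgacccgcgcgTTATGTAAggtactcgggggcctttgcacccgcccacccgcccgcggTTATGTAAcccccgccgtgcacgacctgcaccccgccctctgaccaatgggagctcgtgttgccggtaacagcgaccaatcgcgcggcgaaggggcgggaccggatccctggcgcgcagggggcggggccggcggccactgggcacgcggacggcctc

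On either strand of the 300-base windows, CACGTG was present in 4 of the 9 genes with a listed start (Ciart, Cry1, Per1 and Tef), 3 times in Ciart and once in each of the other 4 windows that hold it. Counted by window, it was in 5 of 11. Of 21263 windows of protein-coding genes, 7.84% contained CACGTG. Among the 689 windows in which a MYC summit lay in at least 2 libraries, 36.1% did. The variant CACGCG was present in 6 of the 9 genes (Ciart, Cry1, Cry2, Dbp, Per1 and Per3) and 6 of their 11 windows, in 12.1% of all windows and in 50.4% of those with recurrent summits. The loose pattern CANNTG, which includes CACGTG, was in 7 of the 9 genes and 9 of their 11 windows, in 69% of all windows and in 72.1% of those with recurrent summits. TTATGTAA was in Per3 alone of these genes, in 0.894% of all windows and in 0 of those with recurrent summits. AGGTCA, the core of the ROR element, was in Nr1d2 and in the first Per1 window, in 14.7% of all windows and in 13.2% of those with recurrent summits. Base composition was not compared between these sets of windows. These genes are known for E-boxes, so their E-box shares beside those of all windows are not read as a result. A match is a description of letters and not a measured binding site.

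The 54 summits formed 16 sites when summits less than 500 bp apart were joined. Of these sites, 13 recurred in at least 2 libraries, and in 10 of the 13 the summits of different libraries lay within 75 bp of each other. The same counts were not made over all sites, so neither is read as a trait of these genes. Of the 16 sites, 12 were found in both Het and WT libraries, 4 in WT libraries only, 0 in Het libraries only and 5 in a Homo library. All 5 sites of the Homo library were also found in Het and in WT. Joined in the same way, the peaks of all 9 lists formed 4709 sites, of which 45.1% were found in both Het and WT, 48.3% in WT only, 6.46% in Het only and 7.31% in Homo. Of the 344 sites found in Homo, 98.0% were also found in Het and in WT, so the nesting of the 5 Homo sites was that of nearly all Homo sites. The folds of the 54 summits over background, the authors' own values at the summit, lay between 3.47 and 15.28, and 27 of the 54 exceeded the median fold of their list, which was between 6.72 and 7.19 in these 6 libraries. Folds are not normalized between libraries, so those of different libraries, given below for each gene, describe the lists and do not measure a change. Solving the fold and p of each peak together for whole reads gave a single answer for 53 of the 54 summits, with 29 to 125 reads at the summit.

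**Figure D1:**
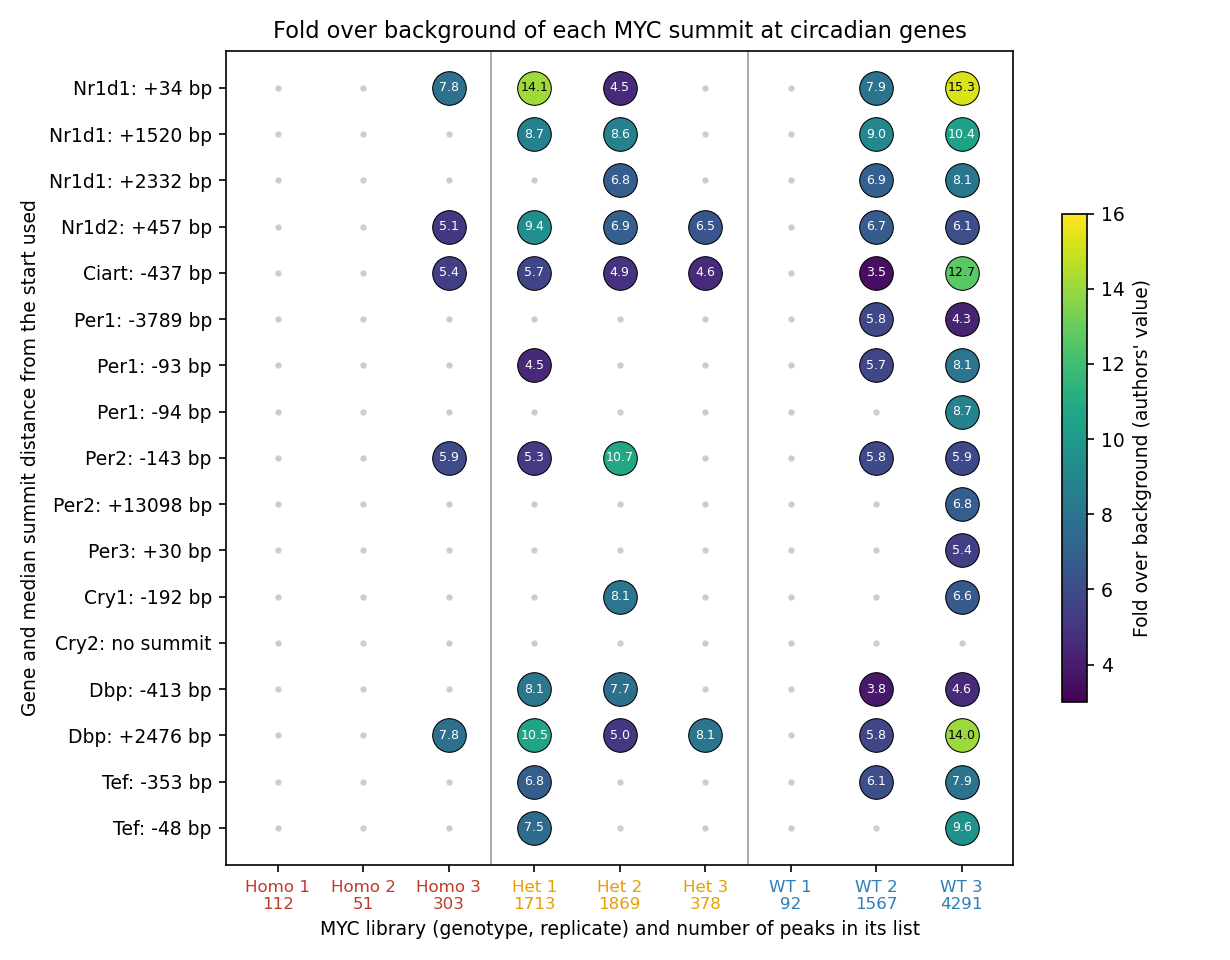
Fold over background of each summit (number and colour in each circle) for the 16 sites and for Cry2 (rows) in the 9 MYC libraries (columns, Homo, Het and WT, with the number of peaks in each list below); small grey dots mark sites with no summit. Distances are medians from the nearest listed start, and for Per2 from the upper end of its span. Homo replicates 1 and 2 and WT replicate 1 have no circle in any row.

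The lists held 112, 51 and 303 peaks in Homo, 1713, 1869 and 378 in Het, and 92, 1567 and 4291 in WT, in replicate order. Homo replicate 2 and WT replicate 1 stood apart, with 17.6% and 15.2% of their summits within 1 kb of a protein-coding gene end against 43.9% to 64.4% in the other 7 libraries. Neither of these 2 libraries, nor Homo replicate 1, held a peak at any of the 10 genes, so results over libraries that hold peaks are the same with and without them.

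Homo replicate 3 had a peak at 5 of the 10 genes (Nr1d1, Nr1d2, Ciart, Per2 and Dbp), against 1.27% of all protein-coding genes in that library. All peaks of these genes in Homo came from that library. In Homo replicates 1 and 2, where 0 of the 10 had one, the shares of all genes were 0.461% and 0.16%. The Het libraries had 7, 6 and 3 of the 10, against 7.44%, 8.05% and 1.33% of all genes. The WT libraries had 0, 7 and 9 of the 10, against 0.238%, 6.66% and 17.9% of all genes. A peak at 1 of the 10 genes is already a larger share than that of all genes, except in WT replicate 3. The shares of the 10 per library are thus coarse. Over all 9 libraries, 8 of the 10 genes had a peak in at least 2 libraries, against 10.5% of all genes (2297 of 21887), 5 of the 10 had one in at least 5 libraries, against 1.74%, and 3 (Nr1d2, Ciart and Dbp) had one in at least 6, against 0.813%. By genotype, 5 of the 10 had a peak in any Homo library, against 1.43% of all genes, 8 in any Het library, against 10.4%, and 9 in any WT library, against 18.3%. Several summits in 1 window, in at least 2 libraries, were found at 4 of the 10 (Nr1d1, Per1, Dbp and Tef), against 0.599% of all genes. Because these 10 genes were chosen with earlier results of the same lists known, no test over them was made.

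The number of the 10 genes with a peak per library was 1.67 ± 2.89 in Homo, 5.33 ± 2.08 in Het and 5.33 ± 4.73 in WT (SD, n = 3 each). The difference of -3.67 for Homo minus WT was smaller than the spread of single libraries (3.92, the root mean square of the genotype SDs). The difference of -3.67 for Homo minus Het was larger than that spread (2.52). This spread is not the error of a difference of means, so neither comparison is a test. The Homo counts were 0, 0 and 5. Homo minus WT was -6.33 without WT replicate 1 and -1.83 without WT replicate 3. Het minus WT was 0 with all libraries, -2.67 without WT replicate 1 and 1.83 without WT replicate 3. The share of all genes with a peak also averaged lower in Homo, at 0.63% ± 0.574, with 5.61% ± 3.72 in Het and 8.27% ± 8.94 in WT (SD, n = 3 each). When the 6 libraries with at least 303 peaks were each limited to their 303 peaks of lowest p, a comparison chosen after the data were seen, Homo replicate 3 held 5 of the 10 genes, Het replicates 1, 2 and 3 held 3, 0 and 2, and WT replicates 2 and 3 held 1 and 3. The difference then became 3 for Homo minus WT and 3.33 for Homo minus Het, each with a single Homo library and so with no spread for Homo. At that length, the shares of all genes with a peak were 1.27% in Homo replicate 3, 1.24%, 1.36% and 1.11% in Het replicates 1, 2 and 3, and 1.24% and 1.33% in WT replicates 2 and 3. The sign of both differences was thus opposite at equal list length, and whether list length accounts for the lower count in Homo was not tested.

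**Figure D2:**
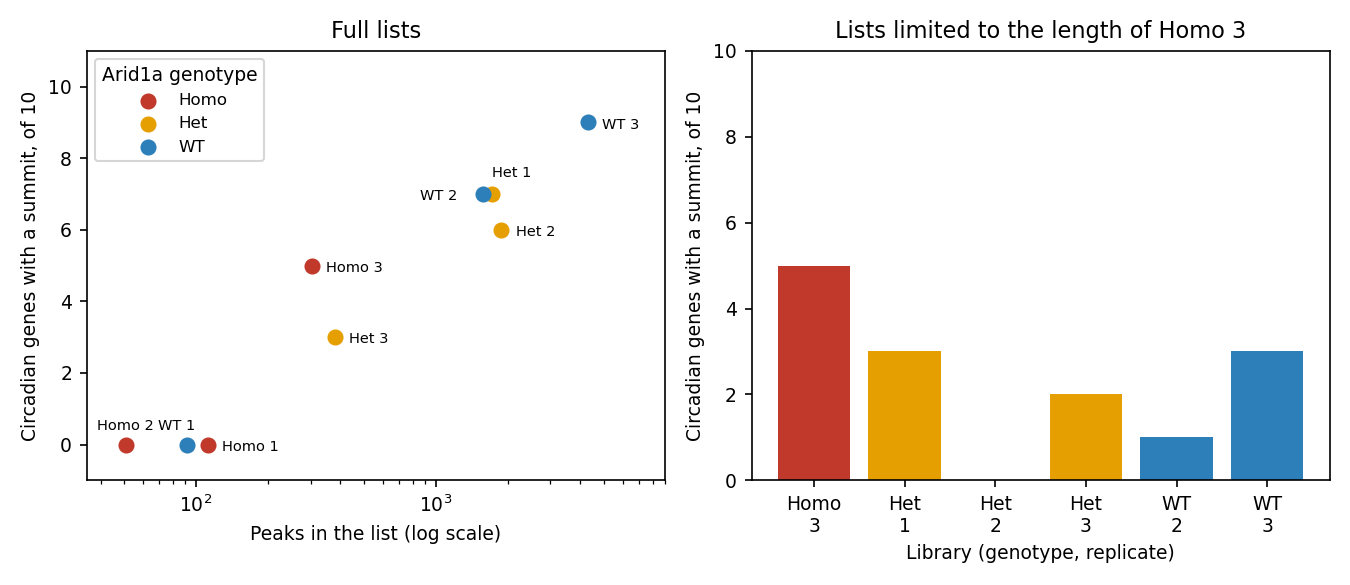
Left, number of the 10 circadian genes with a MYC summit (vertical axis) against the number of peaks in the list (horizontal log axis) for the 9 libraries, coloured by genotype. Right, the same number after the 6 longest lists were limited to 303 peaks each, with bars from 0. The count goes from 0 in the 3 shortest lists to 9 in WT replicate 3, and at equal length Homo replicate 3 has 5 and Het replicate 2 has 0.

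For single genes, the libraries with and without a peak were compared by two-sided Fisher's exact tests over all 4190 protein-coding genes with a peak in any library, with Benjamini-Hochberg adjustment. With 3 libraries against 3 the smallest possible p is 0.1, so no gene can pass. Of these 10 genes, the lowest exact p was 0.4 for Homo against WT, for Per1 and Tef with 0 of 3 Homo and 2 of 3 WT libraries (adjusted exact p = 1). For Homo against Het it was also 0.4, for Nr1d2, Ciart and Dbp with 1 of 3 Homo and 3 of 3 Het libraries (adjusted exact p = 1). For Het against WT each of the 10 genes had an exact p of 1. In each of the 3 comparisons 0 of the 4190 genes passed, and 0 had an unadjusted Fisher's exact p under 0.05. A peak in at least 2 WT and 0 Homo libraries was found at Per1 and Tef, 2 of the 10 genes, against 4.86% of all genes. A peak in at least 2 Het and 0 Homo libraries was found at 0 of the 10, against 4% of all genes, and the opposite pattern of at least 2 Homo and 0 WT or 0 Het libraries at 0 of all genes. For Het and WT, 0 of the 10 genes had a peak in at least 2 libraries of either genotype and 0 of the other, against 0.114% of all genes on the Het side and 0.795% on the WT side.

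In the repressor arm, Nr1d1 encodes REV-ERBα, a nuclear receptor that represses Arntl, and carried the most summits, 12 at 3 sites in 5 libraries (chromosome 11, span 98767932 to 98775377). At its start, with summits between 98775340 and 98775370, 7 to 37 bp inside the gene, the fold was 7.80 in Homo replicate 3, 14.14 and 4.53 in Het replicates 1 and 2, and 7.93 and 15.28 in WT replicates 2 and 3. The Homo value lay within the range of the Het values and just below the lower WT value. The corresponding summits held 108 reads over a local background of 10.73 in Homo replicate 3 (exact Poisson 95% interval 88.59 to 130.39, counting error only). They held 125 over 5.59 and 66 over 12.90 in Het replicates 1 and 2, and 102 over 10.95 and 104 over 4.97 in WT replicates 2 and 3. The 3 lower folds stood beside the 3 highest local backgrounds, counted at each library's own depth. By p, this peak ranked 49 of 303 in Homo replicate 3, 54 of 1713 and 1119 of 1869 in Het replicates 1 and 2, and 131 of 1567 and 76 of 4291 in WT replicates 2 and 3. A second Nr1d1 site, 1510 to 1527 bp inside the gene, was found in Het replicates 1 and 2 and WT replicates 2 and 3, with folds of 8.68 and 8.63 in Het and 9.03 and 10.41 in WT. The third site, 2313 to 2350 bp inside, had a fold of 6.85 in Het replicate 2 and folds of 6.92 and 8.11 in WT replicates 2 and 3. In Het replicate 2 the second site ranked above the start (385 against 1119 of 1869), and in the other Het and WT libraries that held both the start ranked above it. In Homo replicate 3 the site at the start was the only one listed. The summit at the start also lies within 1 kb of Gm31862, a lncRNA gene, so the peak cannot be given to either gene alone.

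Nr1d2 encodes REV-ERBβ, the paralogue of Nr1d1, and had 1 broad site in 6 libraries on chromosome 14 (span 18204056 to 18239106). Its summits spread over 235 bp, 377 to 612 bp inside the gene, and its peaks were 414 to 808 bp long, compared with 226 to 334 bp at the start of Nr1d1. The fold was 5.12 in Homo replicate 3, 9.35, 6.88 and 6.5 in the 3 Het libraries, and 6.72 and 6.09 in WT replicates 2 and 3. The Homo value was the lowest of the 6. Its summit held 88 reads over a local background of 14.3, against 93 over 6.82 and 57 over 6.45 in Het replicates 1 and 2, and 61 over 7.21 and 58 over 7.88 in WT replicates 2 and 3; reads were not solved in Het replicate 3. These reads and backgrounds are counted at each library's own depth. The factor scaling them to the input was 0.2796 in Homo replicate 3. It was 0.286 and 0.4652 in Het replicates 1 and 2, and 0.4568 and 0.5078 in WT replicates 2 and 3. The unscaled values thus do not rank the libraries. The within-list rank of Nr1d2 was 64% of the list in Homo replicate 3, 13.4% to 37.3% in Het, and 33.4% and 36.4% in WT. By p, its peak ranked 194 of 303 in Homo replicate 3. In Het replicates 1, 2 and 3 it ranked 229 of 1713, 582 of 1869 and 141 of 378. In WT replicates 2 and 3 it ranked 524 of 1567 and 1560 of 4291. A low percentage is a strong peak within its own list. The lists differ in length, so the percentages do not compare binding between libraries.

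Ciart encodes CHRONO, a repressor of CLOCK and BMAL1, and also had 1 site in 6 libraries (chromosome 3, span 95878500 to 95882257). Its summits, between 95882522 and 95882687, lay 294 to 459 bp upstream of the listed start and 180 to 418 bp from the 3 CACGTG matches printed above, which are 44, 58 and 116 bp upstream of the start. The fold was 5.42 in Homo replicate 3, 5.67, 4.85 and 4.56 in Het replicates 1, 2 and 3, and 3.47 and 12.69 in WT replicates 2 and 3. The Homo and Het values were alike, and the WT values lay at both extremes of the 6. The 2 WT summits held 51 reads over a local background of 13.14 and 73 over 3.94. The lncRNA gene C920021L13Rik spans the site.

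Among the Period genes, whose proteins repress CLOCK and BMAL1 together with the CRY proteins, Per2 had a peak just outside the upper end of its span in 5 libraries (chromosome 1, span 91415977 to 91459351, summits 101 to 150 bp beyond the end). The fold was 5.93 in Homo replicate 3, 5.25 and 10.74 in Het replicates 1 and 2, and 5.84 and 5.87 in WT replicates 2 and 3. Het replicate 2 stood above the others, with 44 reads over a local background of 2.15. A second Per2 summit, inside the span, had a fold of 6.80 and was listed in WT replicate 3 alone. Per1 had 3 sites (chromosome 11, span 69095108 to 69109965). At its first listed start, 78 to 151 bp upstream, the fold was 4.47 in Het replicate 1 and 5.73 and 8.10 in WT replicates 2 and 3, with no peak in Homo. These 3 summits lay 12 to 86 bp from the CACGTG printed above. A site at the lower end of the Per1 span, its 5′ end, had folds of 5.79 and 4.26 in WT replicates 2 and 3. It lay 3783 to 3795 bp upstream of the first listed start. A site 94 bp upstream of the second listed start, 4 bp from a CACGCG, had a fold of 8.75 in WT replicate 3. Per3 had 1 peak, in WT replicate 3, 30 bp inside its start and with a fold of 5.41 (30 reads over 3.94, rank 3478 of 4291). That peak is shared with the neighbouring gene Gm38529, and it lay 42 bp from a CACGCG and 184 and 232 bp from the D-boxes printed above.

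The Cryptochrome genes, whose proteins repress CLOCK and BMAL1, had peaks in 2 libraries at Cry1 and in 0 at Cry2. Cry1 had a fold of 8.07 in Het replicate 2 and 6.64 in WT replicate 3 (chromosome 10, span 85131700 to 85185054, 272 and 111 bp upstream of the start). The WT summit lay 54 bp and the Het summit 214 bp from the CACGTG of the Cry1 window. The Het summit held 29 reads, the fewest of the 53 solved summits. Cry2 had 0 peaks in 9 libraries, and the nearest summit to its span was 25614 bp away, in WT replicate 3. Its window held a CACGCG and no CACGTG. Absence from a list means that no summit passed the caller's limit at that depth, which for WT replicate 3 extended down to a −log10 p of 5.27.

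Of the PAR bZIP outputs, Dbp had 2 sites in 6 libraries (chromosome 7, span 45705100 to 45710203). The main site lay inside the gene, 2461 to 2502 bp beyond the listed start, with summits within 41 bp of each other in all 6 libraries. Its fold was 7.76 in Homo replicate 3, 10.53, 5.04 and 8.07 in Het replicates 1, 2 and 3, and 5.78 and 14.04 in WT replicates 2 and 3. The Homo value lay inside the range of both other genotypes. The summits held 81 reads over a local background of 7.33 in Homo replicate 3, from 50 to 107 reads in Het, and 66 and 81 reads in WT replicates 2 and 3. A second site, 365 to 421 bp upstream of the start, had folds of 8.15 and 7.69 in Het replicates 1 and 2 and 3.82 and 4.57 in WT replicates 2 and 3. The Het folds were both above the WT folds there, without normalization between libraries. The peaks ranked at 30.2% and 38% of the list in Het and 93.7% and 65.6% in WT, in lists of different lengths. The summits held 70 and 44 reads in Het and 48 and 52 in WT. Local backgrounds were 5.52 and 3.85 in Het and 10.95 and 9.85 in WT. These are counted at each library's own depth, and what the fold difference came from was not tested. The upstream site also lies within 1 kb of Car11, a carbonic anhydrase-related gene. The site inside the gene was the only one listed in Homo replicate 3 and Het replicate 3, and it had the lower p in Het replicate 1 and WT replicates 2 and 3. In Het replicate 2 the upstream site ranked higher (710 against 1182 of 1869).

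Tef had a site at each of its 2 listed starts (chromosome 15, span 81802673 to 81826863). At the first, 40 to 57 bp upstream and 68 to 84 bp from a CACGTG, the fold was 7.48 in Het replicate 1 and 9.64 in WT replicate 3. At the second, 317 to 365 bp upstream and 182 to 230 bp from a CACGTG, the fold was 6.82 in Het replicate 1 and 6.05 and 7.93 in WT replicates 2 and 3. Homo libraries had no Tef peak. The site at the first start is shared with Gm17597, a lncRNA gene.

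**Figure D3:**
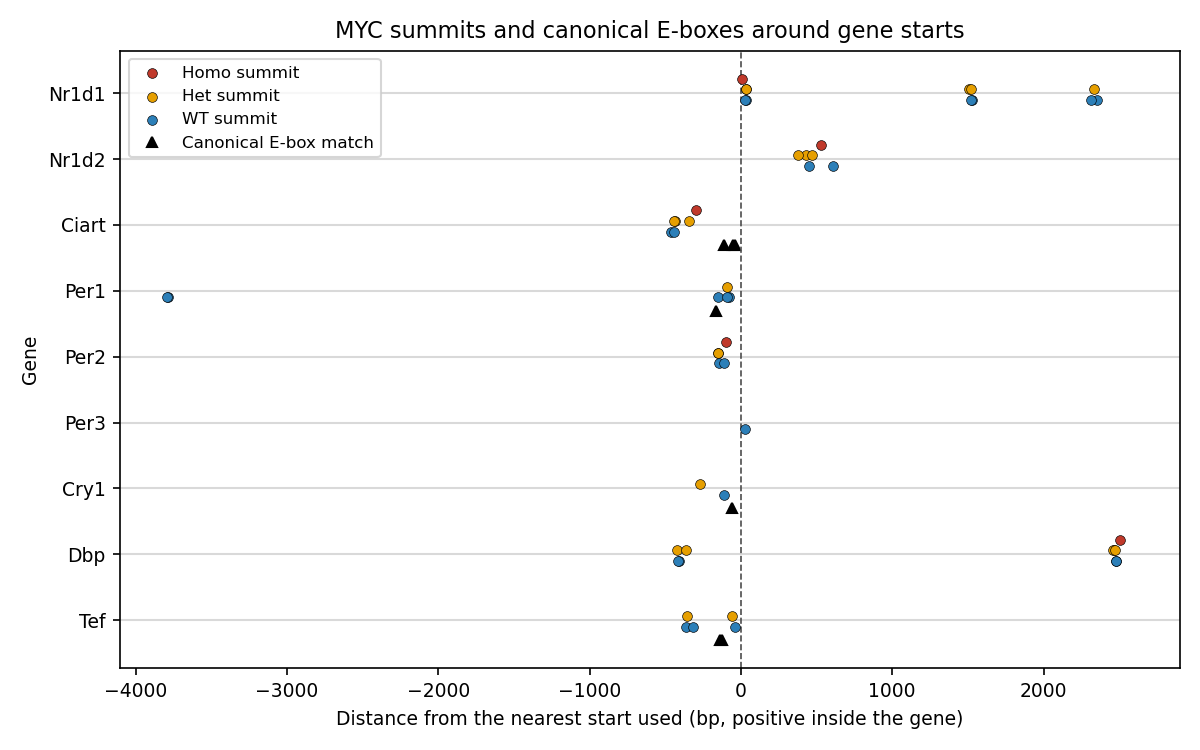
Position of each MYC summit (circles, coloured and offset by genotype as Homo, Het and WT) and canonical E-box match (black triangles) by gene. E-boxes were searched in the promoter windows only. Distances are in bp from the nearest start used, positive downstream of it, which the axis calls inside the gene. The negative summits of Per1 and of the second Tef start also lie inside the span. For Per2 the upper end of the span stands for the start and 1 summit 13098 bp inside it is not drawn. Summits of different libraries stack at the same places, for example 2461 to 2502 bp inside Dbp, and the 3 E-boxes of Ciart lie closer to the start than its summits do.

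Between the arms, 6 of 8 repressor genes and 2 of 2 PAR bZIP genes had a peak in at least 2 libraries. In the 6 libraries with any of these peaks, the repressor arm had 4 of 8 genes in Homo replicate 3, 5, 5 and 2 in Het replicates 1, 2 and 3, and 5 and 7 in WT replicates 2 and 3. The PAR bZIP pair had 1 of 2 in Homo replicate 3, 2, 1 and 1 in the Het libraries, and 2 and 2 in WT replicates 2 and 3. Dbp was present in all 6. By p, the best-ranked peak of the 10 genes was a repressor gene in 5 of the 6 lists, Nr1d1 in Homo replicate 3, Het replicate 1 and WT replicates 2 and 3, and Per2 in Het replicate 2 (rank 364 of 1869). In Het replicate 3 it was Dbp, at rank 84 of 378. Taking the best peak of each gene in each list, the median rank over lists was 8.36% of the list for Nr1d1 (5 lists), 25.2% for Tef (3), 26.0% for Dbp (6), 34.9% for Nr1d2 (6), 56.6% for Cry1 (2), 62.8% for Per2 (5), 64.8% for Per1 (3), 71.1% for Ciart (6) and 81.1% for Per3 (1). The ranges of neighbouring genes in this order overlapped, with the single value of Per3 inside the range of Ciart. These medians are over different lists, and in each of the 3 lists that hold Tef, Dbp ranked better, at 7.71% against 25.2% in Het replicate 1, 35.9% against 61.6% in WT replicate 2 and 3.82% against 10.1% in WT replicate 3. The 2 arms differ in number of genes, and genes are not replicates, so the arms were not tested against each other.

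**Figure D4:**
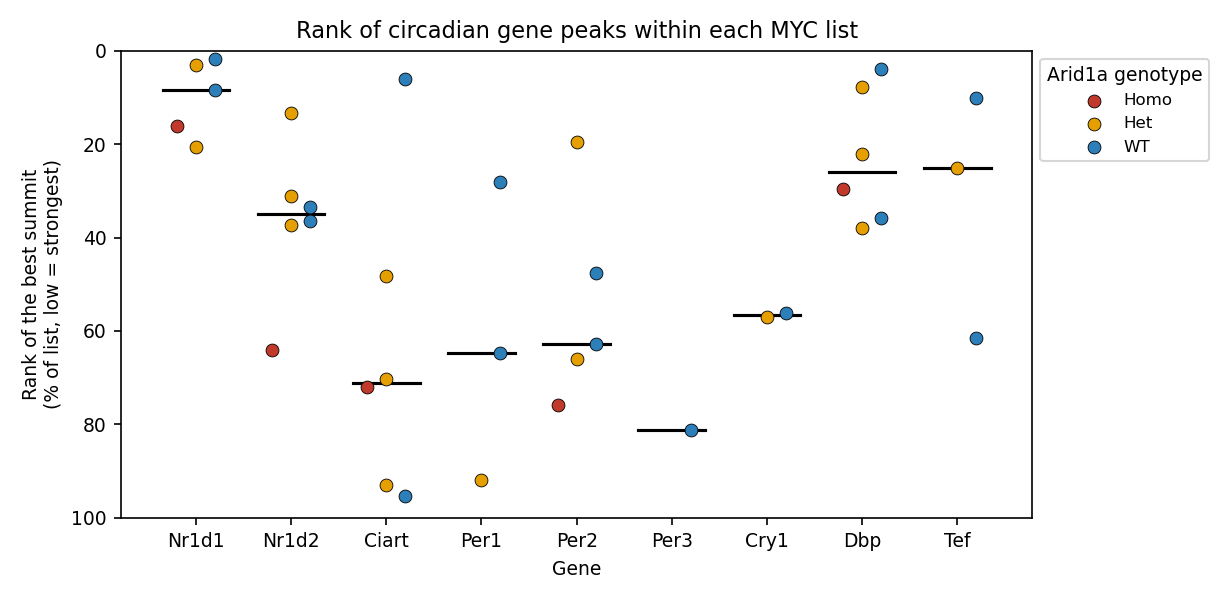
Rank of the best summit of each gene within each list, as a percentage of the list's length (vertical axis, strongest at the top), with circles for libraries in order Homo, Het and WT and a black bar for the median over lists. Nr1d1 lies at 20.6% or better in each of its 5 lists, whereas Ciart runs from 6.13% to 95.4%.

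The gene with a peak in the most libraries and the better median rank among those was Dbp. Excluding genes that share its peak, 68 other protein-coding genes had a peak in exactly the same 6 libraries. The 3 whose within-list rank was closest to that of Dbp, by mean absolute difference over those 6 libraries, were Smarca4 (6.20 percentage points), Angptl6 (6.29) and Fchsd2 (8.47). Smarca4 encodes the ATPase BRG1 of the SWI/SNF complex.

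Other clock genes were counted in the same way, by a peak in at least 2 libraries, which 10.5% of all genes had. In the positive arm it was 1 of 4, Clock, with folds between 6.09 and 8.4 in 0 Homo, 2 Het and 1 WT libraries, and Arntl, Npas2 and Arntl2 had no peak. Of the other bZIP and bHLH regulators it was 1 of 4, Nfil3, a D-box repressor, in 1 Homo, 1 Het and 2 WT libraries, and Hlf, the remaining PAR bZIP gene, had a peak in WT replicate 3 alone (fold 10.93). Csnk1d, a kinase of PER proteins, had a peak in WT replicate 3 alone (fold 7.95). Of 3 other clock proteins, Sfpq had a peak in WT replicate 3 alone.

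Among 13 clock-controlled liver genes, 7 had a peak in at least 2 libraries. Wee1, a cell cycle kinase, had one in 1 Homo, 2 Het and 2 WT libraries with folds of 7.91 to 12.97, ranked within the highest 21.8% of each list. Por, which supplies electrons to cytochrome P450 enzymes, and Lpin1 had one in 2 Het and 2 WT libraries. Usp2 and Ppara, the nuclear receptor of fatty acid oxidation, had one in 2 Het and 1 WT libraries. Nampt, the rate-limiting enzyme of NAD salvage, and Noct had one in 1 Het and 1 WT library. Alas1 and Gys2 had one in a single library each, and Cyp7a1, Pdk4, Pck1 and Elovl3 had none. Of 4 hepatocyte markers, 2 had a peak in at least 1 library, which 19.1% of all genes had. Hnf4a had one in 1 Homo, 3 Het and 1 WT libraries, Apoa1 had one in 1 WT library, and Alb and Ttr had none. Of 12 immune, endothelial, cholangiocyte and stellate markers, 0 had one. A MYC peak at a marker gene is not a measure of the number of such cells.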

How the data were processed

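MYC ChIP-seq peak lists of 9 liver tumour libraries, 3 per Arid1a genotype, were analysed; the 9 input libraries were not used here except as they enter the deposited values. The submitters' processing notes name Picard, HOMER, the aligner Bowtie2 (2.2.3), the peak caller MACS2 (2.0.10.20131216) and the build mm10. The threshold of the caller was not given in those sources. One list was deposited per MYC library. The deposited columns are the fold ratio over local background at the summit, the −log10 p-value and −log10 q-value, an integer score and the summit offset, all the authors' values. Folds were used to describe, rank and filter peaks within a list. They were also set side by side between libraries. Folds are not normalized between libraries, so such comparisons are description only. Gene spans and promoter windows came from RefSeq GRCm38.p6. Whole reads at a summit were solved from the deposited fold and −log10 p, as the scaled reads plus 1 over background plus 1 and a Poisson upper tail. 1 whole number fitted 99.1% of 10376 peaks within 0.003 scaled reads, and backgrounds are given on the scale of the MYC library. Neither reads nor backgrounds are scaled between libraries. The procedures were checked on simulated data. Members and lists were chosen with earlier results of these data known. Named were the 10 genes, neighbours that share a peak, listed clock genes with a peak (results for some items are not reported here), and the 3 genes most like the member with the most libraries. The listed hepatocyte marker Tf had no match by that symbol and was not used. Python 3.11.15, pandas 2.3.3 and SciPy 1.17.1 were used.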

Additional observations from a re-analysis of the deposited data

How the results depend on the processing

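The count of 8 genes with a peak in at least 2 libraries became 5 with summits inside the gene span only, 0 with each list limited to the 51 peaks of the shortest, and 4 with the 6 longest lists limited to 303 peaks, the last chosen after the data were seen. It was 8 with a 5 kb flank, with gene ends only, with any overlap, and at a −log10 q of at least 5, a fold of at least 5 or a −log10 p of at least 10, the last chosen after the data were seen. Leaving out each library in turn gave 7 to 8. The mean difference in genes per library of -3.67 for Homo minus WT became 0.333 and 3 under the 2 limits on list length, and ranged from -6.33 to -1.83 with a library left out. That for Homo minus Het, also -3.67, became 0.333 and 3.33 and ranged from -5.33 to -2.83. That for Het minus WT was 0 and ranged from -2.67 to 1.83. Without WT replicate 1 and Homo replicate 2 together, also chosen after the data were seen, the difference was -5.5 for Homo minus WT, -2.67 for Het minus WT and -2.83 for Homo minus Het. Fewer peaks remain by construction under the limits on list length. With the replicate number as a block, the lowest exact permutation p over the 10 genes was 0.5 for Homo against WT, 1 for Het against WT and 0.5 for Homo against Het (smallest possible 0.25). Same-numbered libraries correlated at -0.25 to 0.26 over genes in their deviations from the genotype means, and differently numbered ones at -0.35 to 0.29. With 3 libraries per genotype and very unequal list lengths, these values cannot show whether same-numbered libraries share a batch. The labels do not say what a replicate number shares. Of 190 library counts of single genes under these settings, 122 were as reported and 68 changed. Leaving out a library lowers the count of a gene by construction where that library held its peak, and otherwise leaves it as it was. The tally is thus not a measure of how stable the counts are.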
